A study of Homo sapiens with 6 samples.

Results

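The genes described here are the enzymes, transporters and one regulator of fatty acid oxidation, the breakdown of fatty acids in mitochondria and peroxisomes. All 34 symbols chosen for this set were found among the 23368 gene symbols of the deposited count table. RNA was sequenced from H2122, a human lung adenocarcinoma cell line, 48 hours after transfection, in 3 libraries with LYCAT shRNA and 3 libraries with a control shRNA. LYCAT is an older symbol of LCLAT1, an enzyme that exchanges acyl chains on cardiolipin, the characteristic phospholipid of the inner mitochondrial membrane. The series title speaks of a knockout, whereas the treatment was an shRNA, whose sequence and number of constructs the labels do not give. The comparison asks how the expression profile differs when LCLAT1 is reduced in this 1 cell line, and effects of the shRNA other than on LCLAT1 cannot be told apart from it.

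Long-chain fatty acids enter mitochondria as carnitine esters, through an outer-membrane transferase (CPT1), a translocase of the inner membrane (SLC25A20) and an inner transferase (CPT2). Inside, beta-oxidation repeats a cycle of dehydrogenation, hydration, a further dehydrogenation and thiolytic cleavage, and the first of these steps passes electrons to the electron transfer flavoprotein. Peroxisomes run a similar cycle on very long and branched chains with their own enzymes, and PPARA is the nuclear receptor best known for inducing genes of both systems in liver.

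LCLAT1 was at 18.9, 22.6 and 23.6 CPM (counts scaled to a common library size, per 1e+06) with LYCAT shRNA and at 56.8, 61.2 and 65.3 CPM with control shRNA. It was 2.83-fold lower, at 35.5% of the control mean (log2 fold change -1.50, SE 0.114, edgeR quasi-likelihood adjusted p = 1.15e-18), so the knockdown was partial. Library totals were 3118946 to 4730453 counts with LYCAT shRNA and 4075367 to 4930079 with control shRNA, and 3 counts stood for 0.608 to 0.967 CPM. Pairs of libraries of the same group differed by a chi-square per degree of freedom of 1.36 to 2.58, and pairs across the groups by 5.19 to 7.10. Nothing in the labels ties the libraries to separate cultures, and the spread behind the p-values is that of these 6 libraries, possibly technical. Epithelial markers were expressed, though MUC1, at 1.98 CPM with LYCAT shRNA and 2.11 CPM with control shRNA, was too low to test. Of 9 that could be tested 4 fell (44.4%, against 19.1% of all 11097 tested genes). KRT7, KRT8 and KRT18, keratins of simple epithelia, fell by 0.30, 0.43 and 0.23 on the log2 scale (edgeR adjusted p = 1.21e-05, 0.000132 and 0.00178), and without control libraries 1 and 2 KRT8 and KRT18 did not pass (0.0845 and 0.365). The fourth was CDH1, E-cadherin, and EPCAM, picked like CDH1 with its values known, was at 624 CPM with LYCAT shRNA and 644 CPM with control shRNA. ELF3, the 1 tested marker with a positive log2 fold change (0.63, edgeR adjusted p = 0.113), did not pass. Its LYCAT shRNA libraries were all above the controls, at means of 6.45 and 4.15 CPM. ELF3 and MUC1 were also picked with their values known. The summed level of 10 epithelial markers was 1981 to 2028 CPM with LYCAT shRNA and 2187 to 2267 CPM with control shRNA, a ratio of means of 0.899, beside 0.917 for the summed level of all 34 fatty acid oxidation genes. The part of this shift in the results below was not tested. Of 25 markers of fibroblasts, endothelium and blood, 7, PECAM1 and PTPRC among them, had no count in any library and 4 could be tested. Their summed level was 26.1 to 43.6 CPM with LYCAT shRNA and 37.2 to 137 CPM with control shRNA, where libraries 1 and 2, at 96.9 and 137 CPM, stood above library 3, mostly through the collagen genes COL1A1 and COL1A2.

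Small changes in both directions were found among the fatty acid oxidation genes, with more falls than rises. Of the 34, 29 passed the filter on low counts, and of these 8 fell, 2 rose and 19 did not pass the test at an adjusted p under 0.05. CPT1A, the entry enzyme of the carnitine shuttle, ECH1, an isomerase for unsaturated chains, HSD17B4, the multifunctional enzyme of peroxisomes, ETFA and ETFB, the subunits of the electron transfer flavoprotein, and PPARA were among those that fell, while CPT2 and ECI2 rose. The members called were 34.5% of those tested, against 19.1% of all tested genes, where 9.26% fell and 9.81% rose. The changes were 1.15-fold to 1.398-fold in size, the median log2 fold change was -0.09 over the 29 and -0.01 over all tested genes, and 15 of the 29 had groups without overlap (11 lower and 4 higher), against 32.8% of all tested genes (16.2% lower and 16.6% higher). DESeq2 called 5 of them lower and 0 higher, which is 17.2% of the members and 10.8% of all tested genes (12 had an unadjusted edgeR p under 0.05). Without control libraries 1 and 2, where 1 control library is left and is taken to vary as the LYCAT shRNA libraries do, 3 were lower and 0 higher, and the share called was then 10.3% of the members and 9.94% of all tested genes, so the members no longer stood above the background. Without LYCAT shRNA replicate 3, 5 were lower and 1 higher (20% of the members and 12.9% of all tested genes), and the number that rose was 1 or 0 without any 1 of the 6 libraries. In the fit without control libraries 1 and 2, which leaves out the control libraries richer in collagen transcripts, CPT1A, ECH1 and ETFA had log2 fold changes of -0.43, -0.43 and -0.26 (edgeR adjusted p = 3.84e-05, 0.00741 and 0.00387), and the other 7 did not pass, at log2 fold changes of the same sign (adjusted p = 0.0653 to 0.151). The median of the members was -0.12 without those libraries and -0.09 with all.

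**Figure D1:**
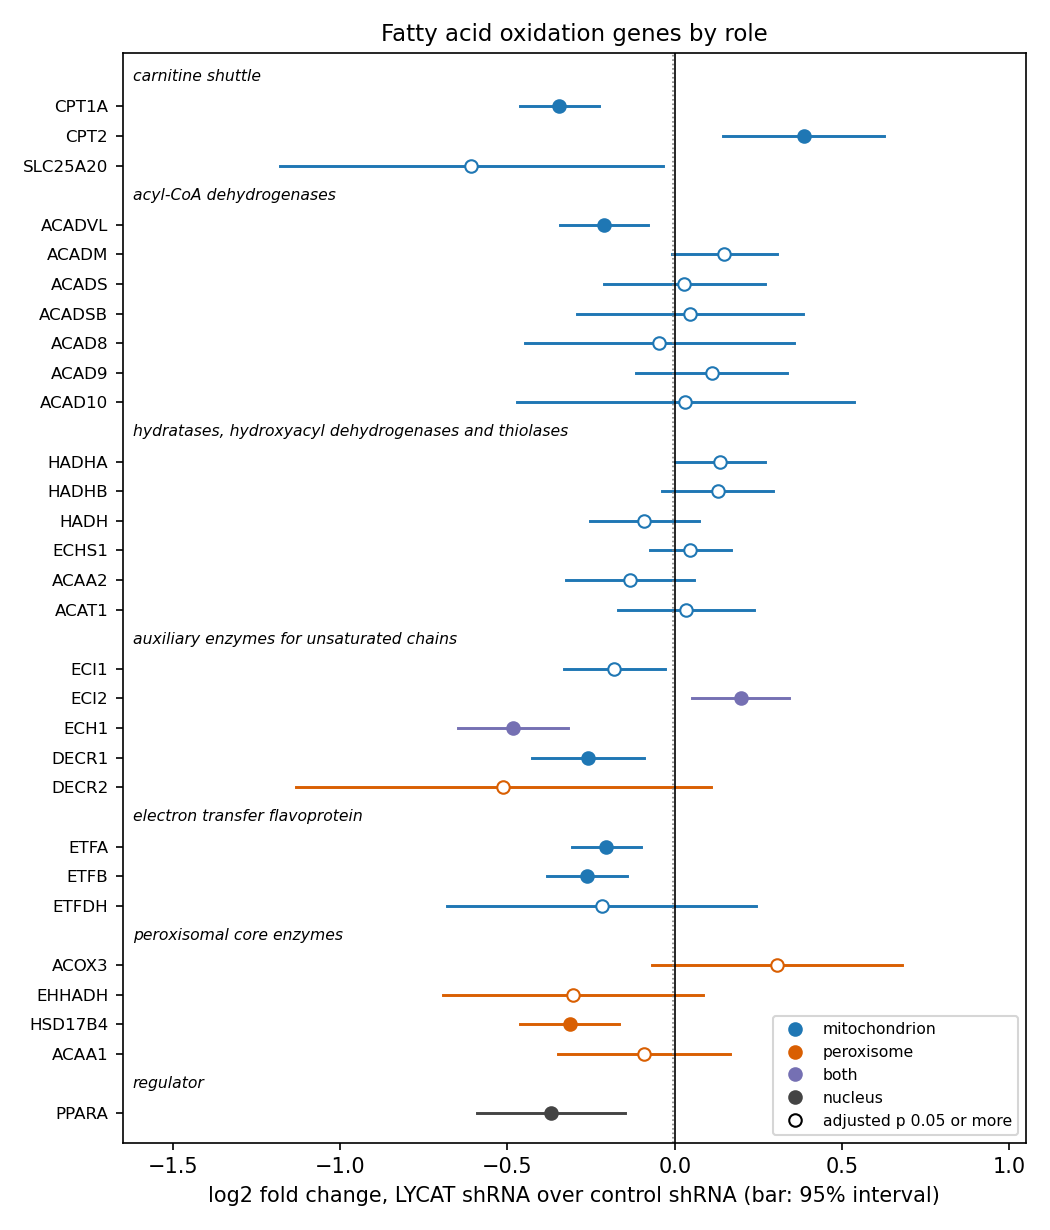
Log2 fold change of LYCAT shRNA over control shRNA for the 29 tested genes, grouped by role; bars are 95% intervals (1.96 SE), colours give the organelle, filled points passed at an adjusted p under 0.05, and the dotted line is the median of all tested genes. Most points lie within 0.5 of 0, CPT1A and CPT2 lie on opposite sides of 0, and the genes with wide intervals (SLC25A20, DECR2, ETFDH, ACAD10) are those with few counts. The bars are slightly narrower than the test implies, and that of HADHA just leaves out 0 at an unadjusted edgeR p of 0.051.

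The carnitine shuttle moved unevenly. CPT1A, the outer-membrane transferase that sets the rate of long-chain entry, had 175, 164 and 171 CPM with LYCAT shRNA, against 211, 209 and 230 CPM with control shRNA. All LYCAT shRNA libraries were below all control libraries, and CPT1A fell 1.27-fold (log2 -0.35, SE 0.0604, edgeR adjusted p = 7.08e-06), a call that held under each of the 15 alternatives run. CPT2, the inner transferase that returns the acyl group to coenzyme A, had 38.5, 33.9 and 30.8 CPM with LYCAT shRNA, against 29.4, 24.7 and 25.1 CPM with control shRNA. The groups did not overlap, and CPT2 rose 1.31-fold (log2 0.39, SE 0.123, edgeR adjusted p = 0.0179). It did not pass with DESeq2 (adjusted p = 0.113), nor with edgeR without LYCAT shRNA replicate 1 (0.191) or control replicate 2 or 3 (0.0677 and 0.0655). The ratio of CPT2 to CPT1A was 0.219, 0.207 and 0.180 with LYCAT shRNA, against 0.139, 0.118 and 0.109 with control shRNA, with no overlap. Each ratio is a description of these libraries and was not tested.

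SLC25A20, the carnitine-acylcarnitine translocase between both transferases, had 6.59, 2.58 and 3.04 CPM with LYCAT shRNA, against 7.502, 6.08 and 5.91 CPM with control shRNA. LYCAT shRNA library 1 lay within the control range and the other LYCAT shRNA libraries below it, at 8 and 13 counts. The log2 fold change was -0.61 (SE 0.292, edgeR adjusted p = 0.140), and without LYCAT shRNA replicate 1 it was -1.19 (0.0196). The muscle form CPT1B had 1 count in all LYCAT shRNA libraries together and 2 in the controls, and CPT1C, a form of the endoplasmic reticulum known from neurons, had 0 to 2 counts in a library. Neither could be tested. CPT1B overlaps the read-through gene CHKB-CPT1B over 66.4% of its exon length in the GENCODE v29 annotation, and that symbol had 0 counts, so reads from the shared part may not have been assigned. CPT1A was therefore the CPT1 form that these counts showed, at 25.9 CPM per kb of exon with LYCAT shRNA and 33.1 with control shRNA, where CPT1C was at 0.0874 and 0.0359.

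Among the acyl-CoA dehydrogenases, which open each turn of the cycle and differ in the chain length they prefer, ACADVL fell and the other 6 tested did not pass. ACADVL, which acts on very long chains at the inner membrane, had 125, 124 and 117 CPM with LYCAT shRNA, against 148, 134 and 141 CPM with control shRNA. The groups did not overlap, and the fall was 1.16-fold (log2 -0.21, SE 0.0675, edgeR adjusted p = 0.0185). It was lost with DESeq2 (adjusted p = 0.0859) and, with edgeR, without LYCAT shRNA replicate 1 or 3 (0.0503 and 0.124) or control replicate 1 or 3 (0.109 and 0.0576). ACADM, the medium-chain enzyme, had 85.1, 86.4 and 86.2 CPM with LYCAT shRNA, against 72.9, 81.7 and 77.8 CPM with control shRNA. The LYCAT shRNA libraries were all above the controls, and the log2 fold change of 0.15 did not pass (edgeR adjusted p = 0.206, 95% interval -0.01 to 0.30).

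ACADS, the short-chain enzyme, had a log2 fold change of 0.03 (95% interval -0.21 to 0.27), and its libraries overlapped at 26.6 to 39.2 CPM with LYCAT shRNA and 29.1 to 34.9 CPM with control shRNA. ACADSB and ACAD8, which act on branched chains made from isoleucine and valine, had log2 fold changes of 0.05 and -0.05, each with an edgeR adjusted p near 0.9 (0.896 and 0.910). ACAD9, which is also an assembly factor of respiratory complex I, had a log2 fold change of 0.11 (0.562), and ACAD10 had one of 0.03 (0.952) at 4.51 to 9.57 CPM with LYCAT shRNA and 5.66 to 7.499 CPM with control shRNA. ACADL, the long-chain enzyme of rodent tissues, had 7 to 8 counts with LYCAT shRNA and 3 to 12 with control shRNA and was not tested. ACAD11 was listed at 0 in every library.

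The later steps of the mitochondrial cycle held 6 tested genes, none of which passed the test with edgeR, and 0 of them had an unadjusted p under 0.05. HADHA, the subunit of the trifunctional protein with the hydratase and hydroxyacyl dehydrogenase activities, had 130, 127 and 137 CPM with LYCAT shRNA, against 114, 125 and 120 CPM with control shRNA. HADHB, the thiolase subunit of the same complex, had 77.2, 71.6 and 81.5 CPM with LYCAT shRNA, against 71.2, 65.1 and 75.8 CPM with control shRNA. The LYCAT shRNA libraries lay above the controls for HADHA and overlapped them for HADHB. The log2 fold changes were 0.14 (SE 0.0681, edgeR adjusted p = 0.165) and 0.13 (SE 0.0849, 0.316). The genes lie head to head, with 306 bases between their RefSeq starts (GRCh38.p14), and the ratio of HADHA to HADHB was 1.71 ± 0.0537 with LYCAT shRNA and 1.70 ± 0.185 with control shRNA (SD, n = 3 each).

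ECHS1, the short-chain hydratase, had a log2 fold change of 0.05 (95% interval -0.08 to 0.17). Per length of exon it was highest of the set, at 110 CPM per kb with LYCAT shRNA and 106 with control shRNA. In CPM, at 177 with LYCAT shRNA and 172 with control shRNA, it was below ETFA, at 337 and 388. HADH, the medium- and short-chain hydroxyacyl dehydrogenase, had a log2 fold change of -0.09 (-0.25 to 0.07), the thiolase ACAA2 one of -0.13 (-0.33 to 0.06), and ACAT1, which splits or makes acetoacetyl-CoA, one of 0.03 (-0.17 to 0.24). The LYCAT shRNA libraries of ACAA2, at 45.1 to 51.4 CPM, lay below the controls at 52.5 to 53.2 CPM, and those of the other 3 overlapped.

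Enzymes that reshape the double bonds of unsaturated chains differed among themselves. ECH1, a dienoyl-CoA isomerase found in mitochondria and peroxisomes, had 60.4, 66.8 and 61.2 CPM with LYCAT shRNA, against 87.0, 90.4 and 84.2 CPM with control shRNA. The groups were far apart, and ECH1 fell 1.398-fold (log2 -0.48, SE 0.0837, edgeR adjusted p = 5.93e-06), the largest change of those that passed, with a call that held under each of the 15 alternatives run. DECR1, the mitochondrial dienoyl-CoA reductase, had 62.9, 72.9 and 64.7 CPM with LYCAT shRNA, against 83.8, 75.2 and 79.3 CPM with control shRNA. The groups did not overlap, though LYCAT shRNA library 2 was close to control library 2, and the fall was 1.20-fold (log2 -0.26, edgeR adjusted p = 0.0229). It was lost with DESeq2 (adjusted p = 0.115) and, with edgeR, without LYCAT shRNA replicate 1 or 3 (0.155 and 0.108) or control replicate 1 or 3 (0.117 and 0.0605).

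ECI1 and ECI2 are both enoyl-CoA isomerases, the first mitochondrial and the other found in both organelles. ECI2 had 104, 116 and 118 CPM with LYCAT shRNA, against 96.9, 104 and 93.1 CPM with control shRNA. LYCAT shRNA library 1 was barely above control library 2, and ECI2 rose 1.15-fold with an adjusted p just under the threshold (log2 0.20, SE 0.0739, edgeR adjusted p = 0.0498). It passed in 5 of 15 alternatives: it was lost without LYCAT shRNA replicate 2 or 3 (0.150 and 0.221) or control replicate 1 or 3 (0.113 and 0.170), and with DESeq2, limma-voom, robust=FALSE, library totals, a mean of at least 5 CPM or without control libraries 1 and 2 (0.0524 to 0.163). ECI1 had 93.1, 96.1 and 92.2 CPM with LYCAT shRNA, against 96.2, 119 and 103 CPM with control shRNA. Its LYCAT shRNA libraries were just below the controls, and the log2 fold change of -0.18 did not pass (edgeR adjusted p = 0.0899; 0.0299 without control replicate 1). DECR2, the peroxisomal dienoyl-CoA reductase, had 9 to 23 counts with LYCAT shRNA and 22 to 24 with control shRNA, and its log2 fold change of -0.51 did not pass (95% interval -1.13 to 0.11).

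The electron transfer flavoprotein takes electrons from all the acyl-CoA dehydrogenases of the mitochondrial matrix and hands them to the respiratory chain through its dehydrogenase, ETFDH. ETFA had 314, 354 and 344 CPM with LYCAT shRNA, against 394, 367 and 404 CPM with control shRNA. ETFB had 202, 188 and 207 CPM with LYCAT shRNA, against 223, 264 and 231 CPM with control shRNA. For both subunits every LYCAT shRNA library was below every control library. ETFA fell 1.15-fold (log2 -0.20, SE 0.0526, edgeR adjusted p = 0.00258; 0.104 without LYCAT shRNA replicate 1) and ETFB 1.20-fold (log2 -0.26, SE 0.0606, edgeR adjusted p = 0.00076; 0.0653 without control libraries 1 and 2 together). Together they stood at 537 ± 18.0 CPM with LYCAT shRNA and 628 ± 9.15 CPM with control shRNA (SD, n = 3 each). The ratio of ETFA to ETFB was 1.55, 1.89 and 1.66 with LYCAT shRNA, against 1.77, 1.39 and 1.75 with control shRNA, with overlap. ETFDH, at 5.32, 8.06 and 8.64 CPM with LYCAT shRNA against 9.22, 7.70 and 8.37 CPM with control shRNA, overlapped between the groups (log2 -0.22, edgeR adjusted p = 0.577). Of its exon length 10.9% overlaps PPID on the opposite strand, and the sources used here do not give whether reads were counted by strand.

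**Figure D2:**
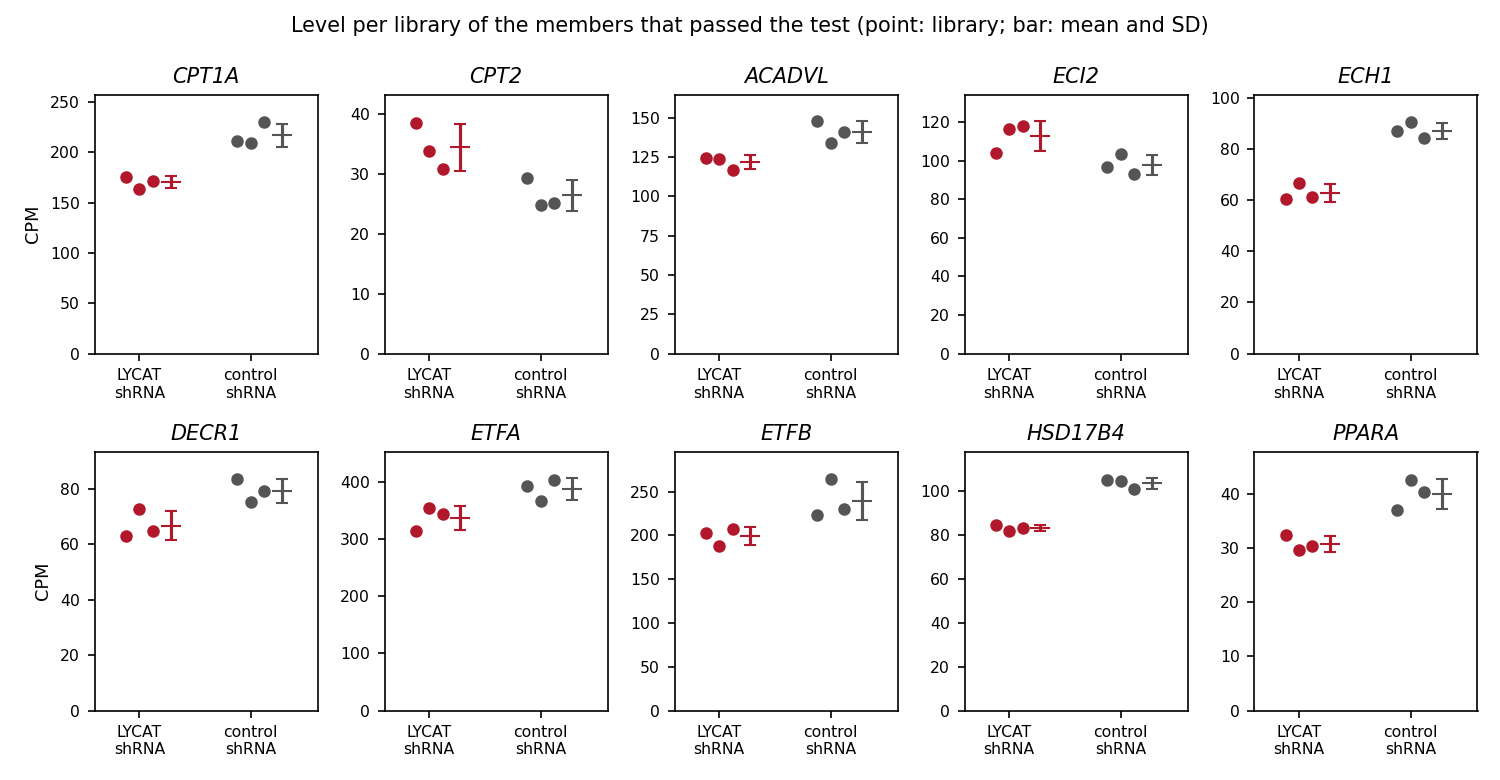
Level in CPM of the 10 genes that passed the test, with 1 point per library, LYCAT shRNA left and control shRNA right, and the mean with its SD beside the points; axes start at 0. LYCAT shRNA points lie below the control points in CPT1A, ACADVL, ECH1, DECR1, ETFA, ETFB, HSD17B4 and PPARA and above them in CPT2 and ECI2.

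ETFA and ETFB encode partners of 1 dimer and both fell, so the stretches before their starts are shown. The stretch of HSD17B4, the peroxisomal gene that fell, is added. Each is the part of the 250 bases before a RefSeq start (GRCh38.p14) that lies in no GENCODE v29 exon, given 5′ to 3′ on the strand of the gene. Capitals mark matches to CCAAT (or ATTGG on the other strand) and to TGATGNAA, a composite element bound by ATF4 and C/EBP proteins. The stretches are chr15:76311473-76311719 (minus strand), chr19:51366419-51366638 (minus strand) and chr5:119452247-119452442 (plus strand).
ETFA: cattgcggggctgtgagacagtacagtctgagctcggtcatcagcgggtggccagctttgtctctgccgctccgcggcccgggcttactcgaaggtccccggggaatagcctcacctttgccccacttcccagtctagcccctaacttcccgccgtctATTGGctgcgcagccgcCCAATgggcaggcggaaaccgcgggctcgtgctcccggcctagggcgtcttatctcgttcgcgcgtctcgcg
ETFB: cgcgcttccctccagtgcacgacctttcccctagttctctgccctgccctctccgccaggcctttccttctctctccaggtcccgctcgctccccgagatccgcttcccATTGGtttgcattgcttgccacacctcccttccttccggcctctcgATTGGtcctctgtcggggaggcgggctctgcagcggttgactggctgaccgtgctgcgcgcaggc
HSD17B4: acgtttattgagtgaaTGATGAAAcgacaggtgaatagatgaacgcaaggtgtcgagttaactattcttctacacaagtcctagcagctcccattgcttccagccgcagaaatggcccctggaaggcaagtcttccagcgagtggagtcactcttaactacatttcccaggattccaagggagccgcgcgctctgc
The stretches of ETFA and ETFB each hold CCAAT at a pair of places. Of the 25 genes of the set that have such a window in the RefSeq table, 7 held CCAAT, beside 32.0% of all 35116 windows. They were ETFA, ETFB, PPARA, ACAD10, ACAT1, HADH and CPT1C. Among them ACAD10, ACAT1 and HADH did not pass the test, and CPT1C was not tested. Here a gene was counted if any of its windows matched, with 34 windows for the 25 genes. The shares over all windows count single windows, so the measures differ for each motif. TGATGNAA was found in HSD17B4 alone among the 25 and in 3.14% of all windows. Other motifs searched on both strands were AGGTCA, the hexamer of nuclear receptors (ACAD10; 12.1% of all windows), the PPAR-RXR repeat of that hexamer with N between (0 of 25; 0.0171%) and the ERR element TCAAGGTCA (0 of 25; 0.319%), which both contain it, the palindromic NRF1 element (PPARA; 1.03%) and the ETS element CCGGAAGT (CPT2; 3.42%). A match describes these letters only, and no match says only that they are not in this window.

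In peroxisomes, acyl-CoA oxidases open the cycle, EHHADH and HSD17B4 are multifunctional hydratases and dehydrogenases, and ACAA1 is the thiolase. HSD17B4, which handles branched and very long chains, had 84.6, 81.9 and 82.9 CPM with LYCAT shRNA, against 105, 105 and 101 CPM with control shRNA. The groups were far apart beside the spread within them, and HSD17B4 fell 1.24-fold (log2 -0.31, SE 0.0757, edgeR adjusted p = 0.00125; 0.0742 without control libraries 1 and 2 together). EHHADH, its counterpart for straight chains, had 9.14, 10.3 and 9.34 CPM with LYCAT shRNA, against 11.4, 12.4 and 11.6 CPM with control shRNA. Its LYCAT shRNA libraries were all below the controls, and at 32 to 61 counts in a library the log2 fold change of -0.30 did not pass (edgeR adjusted p = 0.310, 95% interval -0.69 to 0.08). ACAA1 overlapped between the groups, at 22.6 to 26.9 CPM with LYCAT shRNA and 25.5 to 27.1 CPM with control shRNA (log2 -0.09, edgeR adjusted p = 0.694). ACOX3, an oxidase of branched chains, had 11.3, 14.5 and 14.5 CPM with LYCAT shRNA, against 9.22, 12.4 and 10.6 CPM with control shRNA, and its positive log2 fold change of 0.31 did not pass (edgeR adjusted p = 0.286). ACOX2, the oxidase of bile acid intermediates, had 5 to 9 counts with LYCAT shRNA and 4 to 11 with control shRNA and was not tested.

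Set side by side, mitochondrial and peroxisomal members both stood lower in sum. Over 23 mitochondrial genes the summed level was 1762, 1785 and 1793 CPM with LYCAT shRNA, against 1911, 1927 and 1951 CPM with control shRNA, a ratio of means of 0.922. Over 6 peroxisomal genes it was 136, 134 and 137 CPM with LYCAT shRNA, against 159, 161 and 157 CPM with control shRNA, a ratio of 0.854. Neither pair of groups overlapped. Abundant genes weighed on these sums. Without ETFA and ETFB the mitochondrial ratio was 0.955. The groups still did not overlap, at 1242 to 1245 CPM with LYCAT shRNA and 1294 to 1317 CPM with control shRNA. That sum still held other abundant genes that fell. CPT1A had a mean of 170 CPM with LYCAT shRNA and 217 with control shRNA, and ACADVL 122 and 141. Of the 21 tested mitochondrial genes, 10 had a positive and 11 a negative log2 fold change, so the lower sum does not describe most of them. Without HSD17B4, which gave 61.2% of the peroxisomal sum with LYCAT shRNA and 65.1% with control shRNA, the peroxisomal ratio was 0.949 and its libraries overlapped.

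The mitochondrial sum over the peroxisomal sum was 13.0, 13.3 and 13.1 with LYCAT shRNA, against 12.03, 11.9 and 12.5 with control shRNA. These do not overlap, but without HSD17B4 the same quantity was 34.4, 34.2 and 32.9 with LYCAT shRNA, against 35.5, 33.95 and 34.9 with control shRNA, which do. Gene by gene, the median log2 fold change of 21 tested mitochondrial members was -0.05, and 5 of them fell, 1 rose and 15 missed the threshold. In peroxisomes 1 of 5 tested members fell and 4 missed the threshold, around a median of -0.30. The shares called were 28.6% of mitochondrial and 20% of peroxisomal members, the second near the 19.1% of all tested genes. The median of peroxisomal members was -0.20 over the 4 whose mean reached 5 CPM, and -0.19 over all 6 with no filter, and no test of the difference between the organelles was made. ECH1 and ECI2, found in both, were left out of these counts, and including them changed neither median.

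**Figure D3:**
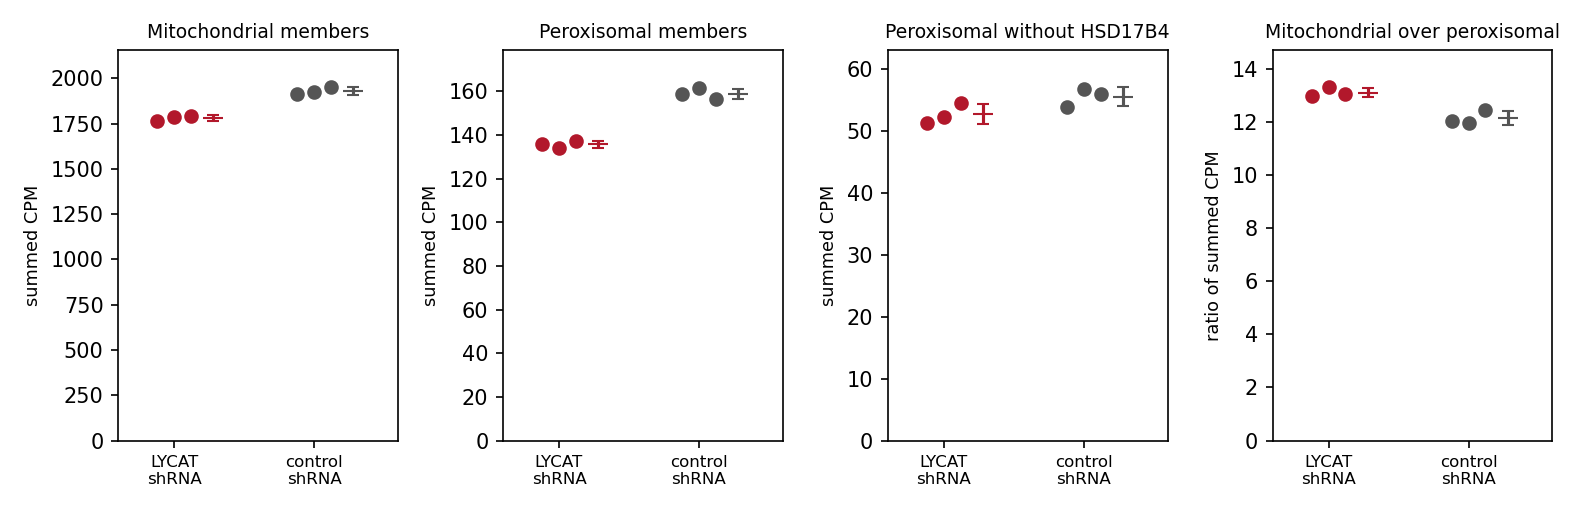
Summed level in CPM of the 23 mitochondrial and the 6 peroxisomal genes, of the peroxisomal genes without HSD17B4, and the ratio of the mitochondrial to the peroxisomal sum; 1 point per library, LYCAT shRNA left and control shRNA right, with mean and SD, and axes from 0. Both sums are lower with LYCAT shRNA, and the groups overlap for the peroxisomal sum without HSD17B4.

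PPARA, the receptor, had 32.5, 29.7 and 30.4 CPM with LYCAT shRNA, against 37.1, 42.6 and 40.4 CPM with control shRNA. The groups did not overlap, and PPARA fell 1.29-fold (log2 -0.37, SE 0.113, edgeR adjusted p = 0.013). The call was lost with DESeq2 (adjusted p = 0.0878) and, with edgeR, without LYCAT shRNA replicate 2 or 3 (0.052 and 0.0614) or control replicate 2 (0.0601).

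Per kb of exon, on a scale of CPM divided by the exon length of the GENCODE v29 annotation, the set spanned over 3 orders of magnitude among the genes with counts in both groups. ECHS1 (110 and 106 CPM per kb with LYCAT and control shRNA), ETFA (67.1 and 77.2) and ETFB (30.5 and 36.7) headed the order. CPT1A, ECH1, ECI1, ACADVL and HADHA followed between 25.05 and 30.0 with LYCAT shRNA and between 27.3 and 35.4 with control shRNA, and are not ranked here. Among peroxisomal enzymes HSD17B4 was highest, at 7.80 and 9.70, and ACAA1, ACOX3 and EHHADH were between 2.04 and 3.49 with LYCAT shRNA and 2.50 and 3.70 with control shRNA. The exon lengths come from another annotation than the counts may have used, so this order is approximate.

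**Figure D4:**
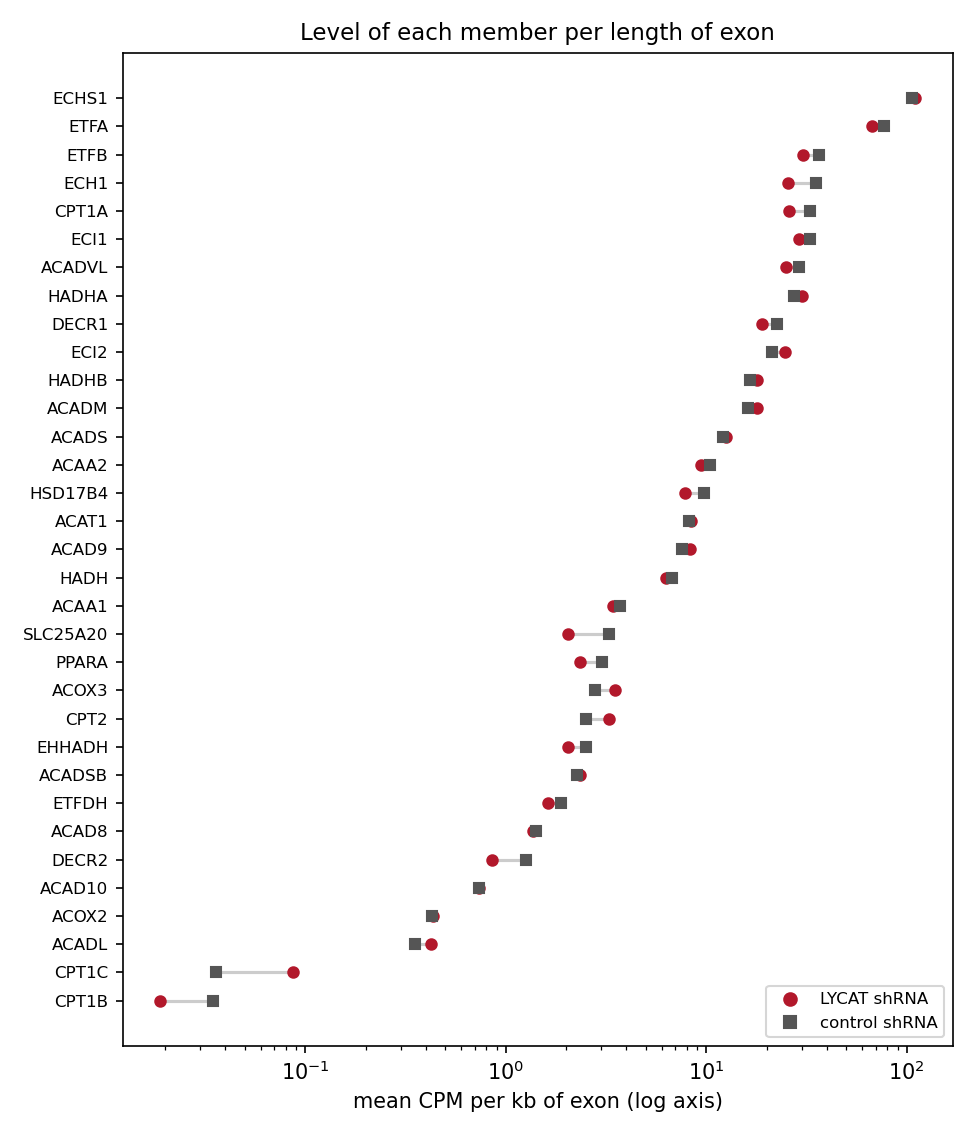
Mean CPM per kb of exon on a log axis for the 33 genes with counts, ordered by the level with control shRNA; circles are LYCAT shRNA and squares control shRNA, means of 3 libraries each. ECHS1 and the flavoprotein subunits are at the top, and CPT1B and CPT1C, with 0 to 2 counts in a library, at the bottom.

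Related genes were read against the 19.1% of all tested genes that were called, of which 9.81% rose and 9.26% fell. The fit without control libraries 1 and 2 is not repeated for each of them below. SLC27A3, PXMP4, CAT, GNPAT, TYSND1, RXRA, PDK4, AUH and BDH1 did not pass in it, at log2 fold changes of the same sign. Of 11 tested genes of fatty acid activation and delivery 1 rose and 1 fell (18.2% called, near the background), with a median log2 fold change of 0.06. SLC27A5, an acyl-CoA synthetase of very long chains and bile acids, rose 1.68-fold, at 32.3 ± 4.19 CPM with LYCAT shRNA and 19.2 ± 1.02 CPM with control shRNA (SD, n = 3 each; edgeR adjusted p = 1.23e-05). SLC27A3, of the same family, fell 1.23-fold (0.0181), and not without LYCAT shRNA replicate 1 or 3 or control replicate 3 (0.0602 to 0.136) or with DESeq2 (0.100). ACSL1, the long-chain synthetase tied to oxidation in liver and muscle, was named after its value was seen, with a log2 fold change of 0.002 (SE 0.0881).

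Genes that build peroxisomes or import acyl-CoA into them mostly did not pass: 1 of 20 tested fell and 0 rose (5% called), with a median of -0.06. The one that fell was PXMP4, a peroxisomal membrane protein, at 19.98 ± 3.41 CPM with LYCAT shRNA and 27.2 ± 0.811 CPM with control shRNA (1.36-fold, edgeR adjusted p = 0.0157). It did not pass without LYCAT shRNA replicate 3 (0.201) or control replicate 1 (0.0586) or with DESeq2 (0.106). Other peroxisomal enzymes moved in both directions, with 3 of 16 that rose, 2 that fell (31.2% called, against 19.1% of all tested genes) and a median of -0.08. IDH1, which makes NADPH in cytosol and peroxisomes, fell 1.81-fold, at 103 ± 5.35 CPM with LYCAT shRNA and 187 ± 20.6 CPM with control shRNA (edgeR adjusted p = 2.22e-16), and CAT, catalase, which removes the hydrogen peroxide made by acyl-CoA oxidases, fell 1.31-fold (0.00531). NUDT19, a hydrolase of coenzyme A, rose 1.30-fold, GNPAT, which starts ether lipid synthesis, 1.26-fold, and TYSND1, a protease that processes peroxisomal oxidation enzymes, 1.28-fold (edgeR adjusted p = 0.000305, 0.0119 and 0.0334). CAT did not pass without LYCAT shRNA replicate 1 (0.0867) or control replicate 2 (0.0831), GNPAT without LYCAT shRNA replicate 2 (0.0646), or TYSND1 without LYCAT shRNA replicate 1 or 3 or control replicate 1 or 3 (0.0663 to 0.158), and with DESeq2 all 3 missed the threshold (0.0538, 0.0674 and 0.161).

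Among regulators of fatty acid oxidation other than PPARA, 1 of 20 tested rose and 2 fell, and the median was -0.02. These are 15%, no more than the 19.1% of all tested genes, so the genes named next say nothing of the list as a whole. PRKAG1, a subunit of the AMP-activated kinase that relieves the block of CPT1 by malonyl-CoA, rose 1.33-fold, at 75.3 ± 5.41 CPM with LYCAT shRNA and 56.2 ± 6.61 CPM with control shRNA (edgeR adjusted p = 0.000458). PRKAB2, another subunit of that kinase, fell 1.30-fold (0.0156), and RXRA, the partner with which PPARA binds DNA, fell 1.18-fold (0.0276). PRKAB2 did not pass without LYCAT shRNA replicate 3 or control replicate 1 or 3 (0.0731 to 0.0929), RXRA without LYCAT shRNA replicate 2 or 3 or control replicate 2 or 3 (0.0946 to 0.140), and neither with DESeq2 (0.102 and 0.123).

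Of genes outside oxidation that PPAR receptors are known to induce, 6 could be tested, and they split: 2 rose, 1 fell (50% called, of few genes) and the median was -0.03. G0S2, an inhibitor of triglyceride breakdown, rose 3.32-fold, at 82.7 ± 4.06 CPM with LYCAT shRNA and 24.8 ± 3.18 CPM with control shRNA (SD, n = 3 each; log2 1.73, SE 0.103, edgeR adjusted p = 2.6e-24). PDK4, a kinase that shuts off pyruvate dehydrogenase, rose 1.61-fold, at 9.79 ± 1.65 CPM with LYCAT shRNA and 5.97 ± 0.743 CPM with control shRNA (0.030), and not without LYCAT shRNA replicate 1 or 2 or control replicate 2 or 3 (0.0533 to 0.138) or with DESeq2 (0.136). TXNIP, a thioredoxin-binding protein that is also induced by glucose, fell 2.04-fold, at 15.3 ± 2.66 CPM with LYCAT shRNA and 30.9 ± 5.26 CPM with control shRNA (edgeR adjusted p = 7.58e-08).

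**Figure D5:**
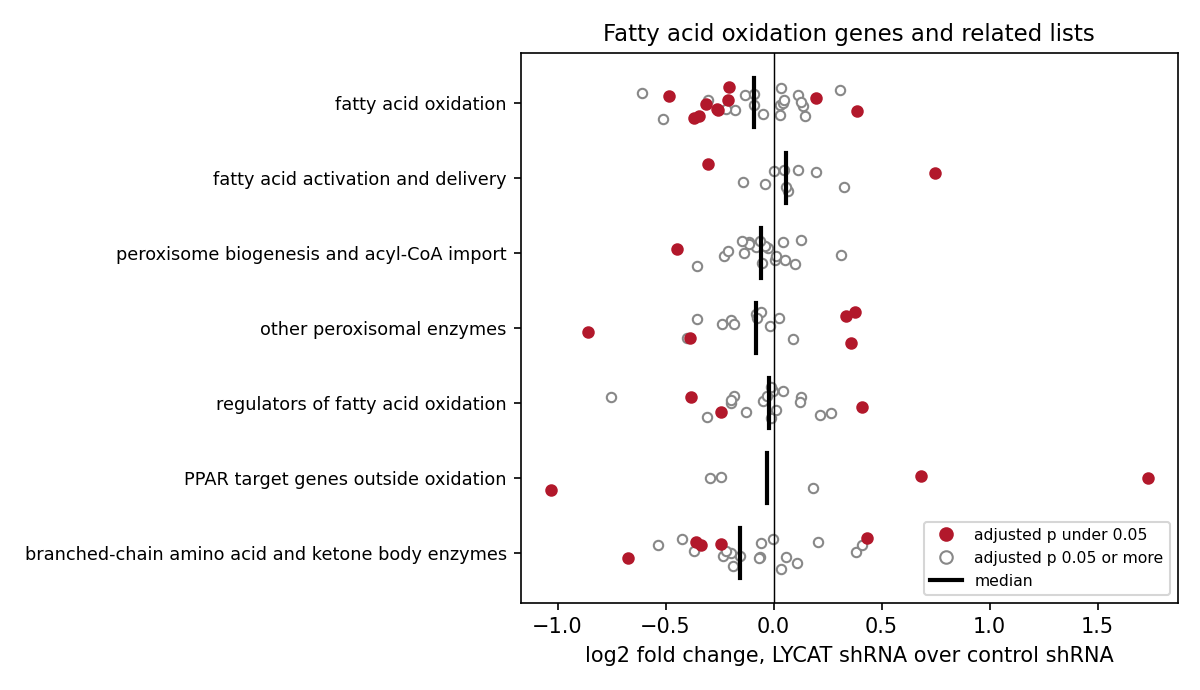
Log2 fold change of LYCAT shRNA over control shRNA for each tested gene of fatty acid oxidation and of 6 related lists; filled points passed at an adjusted p under 0.05 and black bars are medians, and the height within a row carries no meaning. Medians lie between -0.16 and 0.06, and G0S2, at 1.73, is the point farthest from 0.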

How the data were processed

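The authors deposited 1 table of raw counts per gene symbol for 6 libraries. The tools listed in the submitters' processing notes were featureCounts 1.5.1, Bowtie2, BWA 0.7.15 and bcl2fastq 2.17, and the builds mm10 and hg19; the aligner, the build and the strand setting behind the table are not given in the sources used. Columns named cycat were taken as a misspelling of LYCAT.

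Genes were filtered with filterByExpr by group (11097 kept, with 99.8% of counts), scaled with TMM, and tested with edgeR 4.0.16 (R 4.3.3; glmQLFit with robust=TRUE, glmQLFTest) on the group, with Benjamini-Hochberg adjustment over the 11097 genes and calls under 0.05. SE is the size of the log2 fold change divided by the square root of F, and 95% intervals are 1.96 SE. That multiplier is of the normal distribution, so the intervals are slightly narrower than the F test implies. The interval of HADHA, 0.0016 to 0.269, leaves out 0 although its unadjusted edgeR p was 0.051. Members were fixed by symbol; roles, organelles, related lists and motifs were chosen with earlier results of these data known. Named were all 34 members, LCLAT1, and from each list the called genes with the smallest adjusted p, up to 3 in each direction, or with none called the 2 with the highest mean; a gene named otherwise is said to be so. Exon lengths came from GENCODE v29 and sequences from RefSeq (GRCh38.p14), not the authors' build. In the table of windows 25 of the 34 members were found.

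The scripts were tested on simulated counts with known changes. There edgeR called 42% of 1.25-fold, 80% of 1.5-fold and 94% of 2-fold changes, and DESeq2 30%, 70% and 86%. False calls were 1.9% of the calls with edgeR and 0.73% with DESeq2. In that setting many changes of 1.25-fold were missed, more so with DESeq2. Far fewer genes were changed there than the 2117 called in the data, so these shares need not hold for the members. Alternatives were other scaling, filters, DESeq2 1.42.0, limma-voom (limma 3.58.1), robust=FALSE, a replicate block, and leaving out libraries.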

Additional observations from a re-analysis of the deposited data

How the results depend on the processing

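Of the 2 rises, ECI2 was the least stable call among the members that passed, kept in 5 of 15 alternatives. CPT2 was kept in 10, beside 9 for ACADVL and 9 for DECR1. Members higher numbered 1 with library totals, a mean of at least 5 CPM, limma-voom or robust=FALSE. They numbered 0 with DESeq2 and 0 to 1 without any 1 library. Members lower numbered 5 with DESeq2, 3 without control libraries 1 and 2, and 5 to 7 without any 1 library. Over all tested genes DESeq2 called 1193 (635 higher, 558 lower) and the fit without control libraries 1 and 2 called 1129 (573 and 556). The median of members was -0.12 without those control libraries and -0.14 to -0.083 without any 1 library, that of mitochondrial members -0.092 to -0.0053, and that of peroxisomal members -0.19 with no filter (6 genes) and -0.20 at 5 CPM (4 genes), where the genes tested differ. Signs turned only for members that never passed, and for COL1A2. Without control libraries 1 and 2 the log2 fold changes were -0.018 for ACADSB, -0.026 for ECHS1, -0.020 for ACAT1 and 2.02 for COL1A2, and ACAD10 had -0.017 with limma-voom. Without any 1 library ACADS ranged from -0.12 to 0.19, ACAD8 from -0.12 to 0.032, ACAD10 from -0.37 to 0.21, ECHS1 from -0.0053 to 0.087 and ACAT1 from -0.076 to 0.12. The causes were not tested. Same-numbered libraries did not deviate together from their group means (correlations 0.00509, -0.0645 and -0.0477). Such deviations hold counting noise, so the low correlations do not decide whether the numbers pair the libraries. With a replicate block 8 members were lower and 2 higher, and 2046 genes passed in all. Genes with few counts (SLC25A20, DECR2, ETFDH, ACAD10) have intervals too wide to show changes of the size seen in abundant members.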

Other observations

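Enzymes of branched-chain amino acid and ketone body metabolism, which share acyl-CoA dehydrogenase and thiolase chemistry with fatty acid oxidation, were called about as often as all genes: of 23 tested, 4 fell and 1 rose (21.7%, against 19.1% of all tested genes). The median log2 fold change was -0.16, against -0.01 over all tested genes. BCAT1, the cytosolic aminotransferase, fell 1.18-fold, at 275 ± 21.9 CPM with LYCAT shRNA and 324 ± 2.94 CPM with control shRNA (SD, n = 3 each; edgeR adjusted p = 0.000508). AUH, a hydratase of leucine breakdown, fell 1.59-fold (edgeR adjusted p = 0.00538; 0.100 without LYCAT shRNA replicate 1), and BDH1, a dehydrogenase of ketone bodies, 1.28-fold (0.00736; 0.102 without LYCAT shRNA replicate 3 and 0.0614 without control replicate 1). PCCB, a subunit of propionyl-CoA carboxylase, which takes up the end product of odd-chain oxidation, rose 1.35-fold, at 50.3 ± 2.41 CPM with LYCAT shRNA and 37.3 ± 2.27 CPM with control shRNA (edgeR adjusted p = 0.00125). DESeq2 did not call AUH (0.0526) or BDH1 (0.058), and neither passed without control libraries 1 and 2.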
